A study of Mus musculus with 10 samples.

Results

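A set of 32 genes best known from astrocytes was followed in the transcriptomes of inspiratory neurons of the preBötzinger complex (preBötC). The members were taken by symbol from a list of 32 genes, and all 32 were found among the 55367 genes of the deposited count and FPKM files. FPKM is the number of fragments counted on a gene per kilobase of its length and per 1000000 fragments counted on genes, so levels of different genes are compared here only on that scale. Each sample is 1 neuron and 1 library, and the set holds 10 neurons of neonatal mice, aged postnatal day 0 (P0) to P3.

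Dbx1-derived neurons of Dbx1;Ai148 mice were 4 samples (1, 5, 6 and 7). These carry Cre under the Dbx1 promoter and the Cre-dependent calcium indicator GCaMP6f, on a C57Bl/6J or mixed C57Bl/6J;CD1 background, and their neurons were chosen by fluorescence that rose and fell with hypoglossal motor output. The other 6 (samples 2, 3, 4, 8, 9 and 10) came from wild-type CD-1 mice, with no label for lineage, and were chosen by their own activity once patched. By electrophysiology, samples 4, 5, 6 and 7 were Type-1, sample 1 was Type-2, and samples 2, 3, 8, 9 and 10 were Unknown. Samples 1, 3, 5 and 8 were P0, sample 10 was P1, samples 2 and 9 were P2, and samples 4, 6 and 7 were P3. All neurons were recorded in brainstem slices bathed in raised external potassium. Their contents were drawn into the patch pipette by negative pressure and amplified with SMART-Seq v4. All 5 Unknown neurons were CD-1 and 3 of the 4 Type-1 neurons were Dbx1-derived, so neuron type and mouse line cannot be told apart. The labels name no animal, so groups are described without a test.

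Astrocytes wrap synapses and blood vessels, clear glutamate and potassium from the extracellular space, move water through aquaporin channels, and supply lipid to neurons in lipoprotein particles. In the preBötC they surround the rhythm-generating neurons and take up the glutamate and potassium that each inspiratory burst releases. Several genes on the list are not private to astrocytes. Apoe is also made by microglia, Vim and Sparc by cells of blood vessels, and Clu, Mt3, S100b and Ndrg2 by some neurons, while Fabp7 and Vim also mark the radial glia from which astrocytes arise.

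The libraries held 21392146 to 36629393 fragments counted on genes. They stood apart in their spread over genes, since the median FPKM over the 16546 genes at 1 FPKM or more in any neuron was 0.0116 to 0.0929 in samples 1, 2, 3, 4 and 9 and 1.59 to 2.47 in samples 5, 6, 7, 8 and 10. Both sets hold libraries with many and with few of the astrocyte genes, and its part in their levels was not tested. A count of 0 allows up to 3 counts, and such limits cover counting error only, since the reads carry no molecular identifiers. The list of 11 neuron genes had 8 to 11 members at 1 FPKM or more in each library. Its summed level was between 1580 and 5740 FPKM in 9 libraries and 116 FPKM in sample 4. That library also held all 12 genes of a microglia list at 1 FPKM or more, with a summed level of 20300 FPKM against 29.0 to 2650 FPKM in the other 9. In these genes it goes against its label of a neuron, and group values that include it are also given without it. Genes of endothelial, mural and ependymal cells were at or near 0. Tek reached 6.82 FPKM in sample 1, all other endothelial values were at 0.0204 FPKM or less, the 7 mural genes summed to at most 0.159 FPKM, and no ependymal gene had a count. The 5 erythroid genes summed to at most 18.8 FPKM, in sample 9.

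Astrocyte genes were carried together by samples 2, 3 and 8, all Unknown neurons from CD-1 mice. Sample 8 had 29 of the 32 genes at 1 FPKM or more, and samples 2 and 3 had 27 each. Over all listed genes the same limit was passed by 16.8%, 10.2% and 9.13%. Sample 4 had 19 genes at this level (12.3% of all listed genes), and samples 5 and 10 had 17 each (16.7% of all listed genes in both). The remaining libraries had fewer than 16, with 14 in sample 1, 13 in sample 7, and 11 in samples 6 and 9, where 9.15%, 15.7%, 15.9% and 12.0% of all listed genes passed. In every library the share of astrocyte genes was above that of all listed genes, and the distance was widest in samples 2, 3 and 8. Most listed genes, however, passed in no neuron. Among genes that passed in at least 1 neuron (31 members, 16546 genes), the share of members was lower in samples 6, 7 and 9. There 11, 13 and 11 members passed, against 8817, 8720 and 6632 genes. The shares were about equal in samples 5 and 10, with 17 members in each against 9223 and 9222 genes. The share of members stayed higher in samples 1, 2, 3, 4 and 8. Within the 5 libraries of low median FPKM the counts ran from 11 (sample 9) to 27 (samples 2 and 3), and within the other 5 from 11 (sample 6) to 29 (sample 8).

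At 10 FPKM or more the gap between these 3 neurons and the rest was wider still. The counts were 24 in sample 2, 24 in sample 3 and 23 in sample 8, against 6.93%, 6.81% and 9.55% of all listed genes. In the other 7 libraries between 7 and 12 of the 32 genes reached 10 FPKM, with 12 in sample 1 (6.22% of all listed genes), 11 in sample 4 (5.91%), 10 in sample 10 (8.81%), 9 in sample 5 (8.73%), 9 in sample 7 (9.14%), 9 in sample 9 (7.72%) and 7 in sample 6 (9.28%). No library lay between 12 and 23 genes. Against only the genes that passed 1 FPKM in some neuron (31 members, 16546 genes), the picture changed. In samples 5, 7, 9 and 10 the 9, 9, 9 and 10 members stood against 4831, 5058, 4277 and 4879 genes, which are close as shares. Sample 6, with 7 members against 5139 genes, had the lower share of members. The share of members stayed higher in samples 1, 2, 3, 4 and 8. At 100 FPKM or more the order changed, since sample 3 held 12 genes, sample 2 held 9, sample 1 held 8 and sample 8 held 7, while sample 6 held 0. Sample 1 was thus low by the number of genes present and high by the level of those that were.

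**Figure D1:**
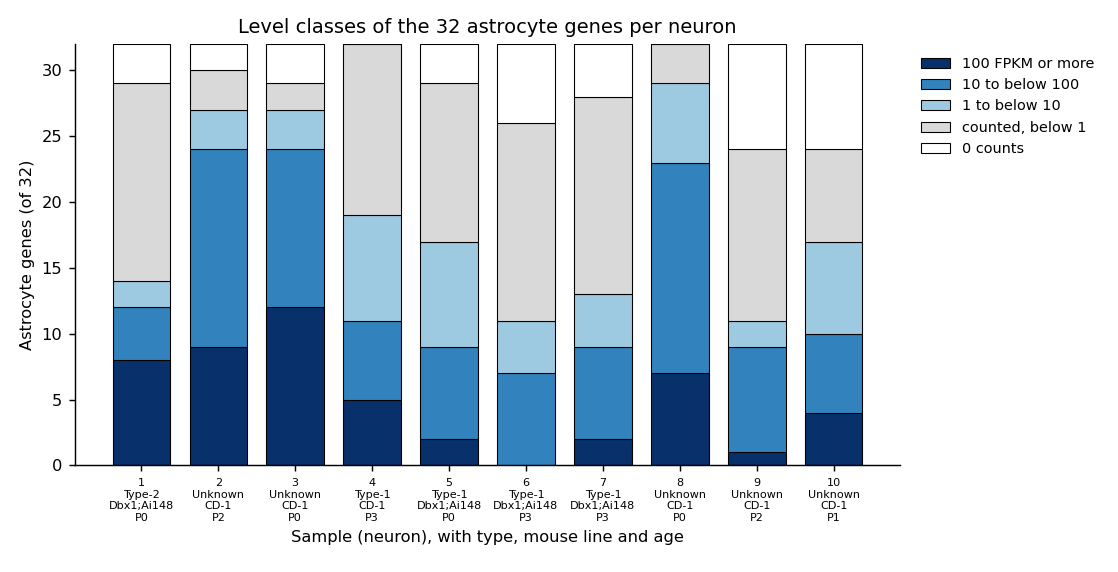
Number of the 32 astrocyte genes (vertical axis) in each level class, by sample with its neuron type, mouse line and age (horizontal axis); dark blue is 100 FPKM or more, mid blue 10 to below 100, light blue 1 to below 10, grey counted but below 1 FPKM, and white 0 counts. Samples 2, 3 and 8 reach 27, 27 and 29 genes at 1 FPKM or more, and samples 9 and 10 have the most genes with 0 counts, 8 each.

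The 32 genes took 3.14% of all counts in sample 3 (95% Wilson interval 3.13 to 3.15), 1.94% in sample 4, 1.72% in sample 2 and 1.27% in sample 8. The share was 0.654% in sample 1, 0.276% in sample 10, 0.164% in sample 7, 0.134% in sample 5 and 0.0885% in sample 9, and it was lowest in sample 6, at 0.0638% (0.0629 to 0.0647). These intervals are narrow against the distances between libraries. Apoe and Fabp7 made up much of the share. Without both genes it was 1.44% in sample 3, 0.844% in sample 2, 0.700% in sample 8, 0.686% in sample 4 and 0.406% in sample 1, against 0.0576% to 0.191% in the other 5.

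As a level over all members, the mean log2(FPKM + 1) of the 32 genes was 5.72 in sample 3, 5.26 in sample 2 and 5.00 in sample 8. It was 3.25 in sample 4, 2.94 in sample 1, 2.32 in sample 10, 2.24 in sample 5, 1.93 in sample 7, 1.61 in sample 9 and 1.36 in sample 6. The highest 3 neurons thus stood apart from the next, sample 4. Of the 5 highest, samples 1, 2, 3 and 4 are libraries of low median FPKM and sample 8 is not, and sample 9, the fifth library of low median FPKM, was among the lowest. By type, the mean was 3.98 ± 1.88 (SD, n = 5) in Unknown neurons and 2.20 ± 0.79 (SD, n = 4) in Type-1 neurons, with 2.94 in the single Type-2 neuron. The spread within Unknown neurons was larger than the distance between the type means, because samples 9 and 10 lay within the range of the Type-1 neurons. Without sample 4 the Type-1 mean was 1.85.

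**Figure D2:**
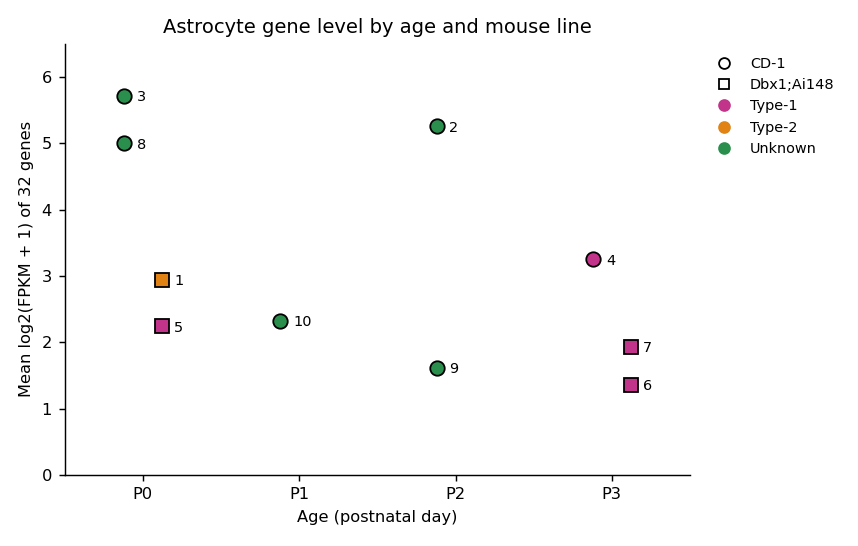
Mean log2(FPKM + 1) of the 32 astrocyte genes (vertical axis) against age in postnatal days (horizontal axis), 1 point per neuron, numbered by sample; circles are CD-1, squares Dbx1;Ai148, and colour gives the neuron type. Samples 2, 3 and 8 lie at 5.00 to 5.72, and the other 3 CD-1 neurons lie at 1.61 to 3.25, within or just above the 1.36 to 2.94 of the Dbx1;Ai148 neurons.

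Glutamate uptake is represented by Slc1a2 and Slc1a3, the transporters GLT-1 and GLAST, and by Glul, the glutamine synthetase that turns glutamate into glutamine. Slc1a3 (chr15:8634124-8710764, minus strand, GRCm38) was at 13.8, 34.2, 20.9, 0.0265 and 2.06 FPKM in Unknown samples 2, 3, 8, 9 and 10, at 0.151, 2.60, 0.0223 and 0.0958 FPKM in Type-1 samples 4 to 7, and at 41.1 FPKM in the Type-2 neuron, sample 1. It was high in samples 1, 2, 3 and 8, and the ranges of Type-1 and Unknown neurons overlapped. Glul (chr1:153899944-153909723, plus strand) was at 75.3, 61.4, 22.0, 0.0240 and 9.05 FPKM in Unknown samples 2, 3, 8, 9 and 10, at 49.0, 4.00, 0.0504 and 0.0618 FPKM in Type-1 samples 4 to 7, and at 0.111 FPKM in sample 1. Sample 1, which held the most Slc1a3, thus had only 9 fragments of Glul.

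Slc1a2, the main glutamate transporter of mature astrocytes, passed 1 FPKM in 3 neurons. Its levels there were 17.3, 9.43 and 6.74 FPKM (samples 3, 8 and 4), and none of the other 7, with 0 to 8 fragments each, exceeded 0.0285 FPKM. Samples 2 and 3, close in most astrocyte genes, differed here, with 5 against 7073 fragments. Only samples 3 and 8 carried all 3 genes of this group at 1 FPKM or more, and samples 6, 7 and 9 carried none.

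Ion and water transport was covered by 7 genes: the potassium channels Kcnj10 (Kir4.1) and Kcnj16 (Kir5.1), the water channel Aqp4, the sodium-bicarbonate cotransporter Slc4a4, Mlc1 and Hepacam, which lie at astrocyte end-feet and junctions, and the chloride channel gene Ttyh1. Ttyh1 was at 68.4, 104, 48.6, 0.852 and 11.9 FPKM in Unknown samples 2, 3, 8, 9 and 10, at 0.122, 7.88, 1.24 and 17.8 FPKM in Type-1 samples 4 to 7, and at 0.139 FPKM in sample 1. Mlc1 was at 29.6, 93.5, 33.4, 0.0485 and 0 FPKM in Unknown samples 2, 3, 8, 9 and 10, at 0.0728, 0.00975, 0.0340 and 0.0417 FPKM in Type-1 samples 4 to 7, and at 0.0501 FPKM in sample 1. Both genes were highest in samples 2, 3 and 8, but Mlc1 was all or nothing while Ttyh1 kept intermediate levels in samples 5, 7 and 10. Kcnj16 had the same pattern as Mlc1, with 50.6, 53.6 and 20.01 FPKM in samples 2, 3 and 8 and 0.131 FPKM or less elsewhere. Kcnj16 and Mlc1 were the members at 1 FPKM or more in exactly these 3 neurons.

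Aqp4, which lets water cross the astrocyte end-foot, was at 2.66, 76.4, 21.4, 0.00727 and 0.00526 FPKM in Unknown samples 2, 3, 8, 9 and 10, at 6.55, 0, 0.0306 and 0.131 FPKM in Type-1 samples 4 to 7, and at 0.0375 FPKM in sample 1. Sample 3 held 3.57 times the level of the next neuron, sample 8, and sample 2 was low for a library with 27 astrocyte genes. Kcnj10, the channel that pairs with Kcnj16 in astrocyte membranes, did not follow it. Samples 2, 4 and 6 held 48.5, 4.54 and 3.58 FPKM, and the other 7 held at most 0.125 FPKM, including samples 3 and 8 with 1 and 18 fragments.

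Slc4a4, which carries bicarbonate and so affects extracellular pH, was at 19.9, 2.21, 8.81, 0 and 2.43 FPKM in Unknown samples 2, 3, 8, 9 and 10, at 0.647, 0.561, 0 and 2.93 FPKM in Type-1 samples 4 to 7, and at 44.2 FPKM in sample 1. Its highest level was in the Type-2 neuron, and the Type-1 and Unknown ranges overlapped. Hepacam, the adhesion protein that holds Mlc1 at the membrane, was highest in sample 5 at 14.5 FPKM, where Mlc1 had 1 fragment. Samples 3, 8 and 4 followed with 12.3, 10.8 and 4.19 FPKM, and the other 6 held at most 0.0271 FPKM. Of the 7 genes of ion and water transport, samples 2, 3 and 8 carried 6 each at 1 FPKM or more, sample 4 carried 3, samples 5, 6, 7 and 10 carried 2, sample 1 carried 1 and sample 9 carried 0.

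**Figure D3:**
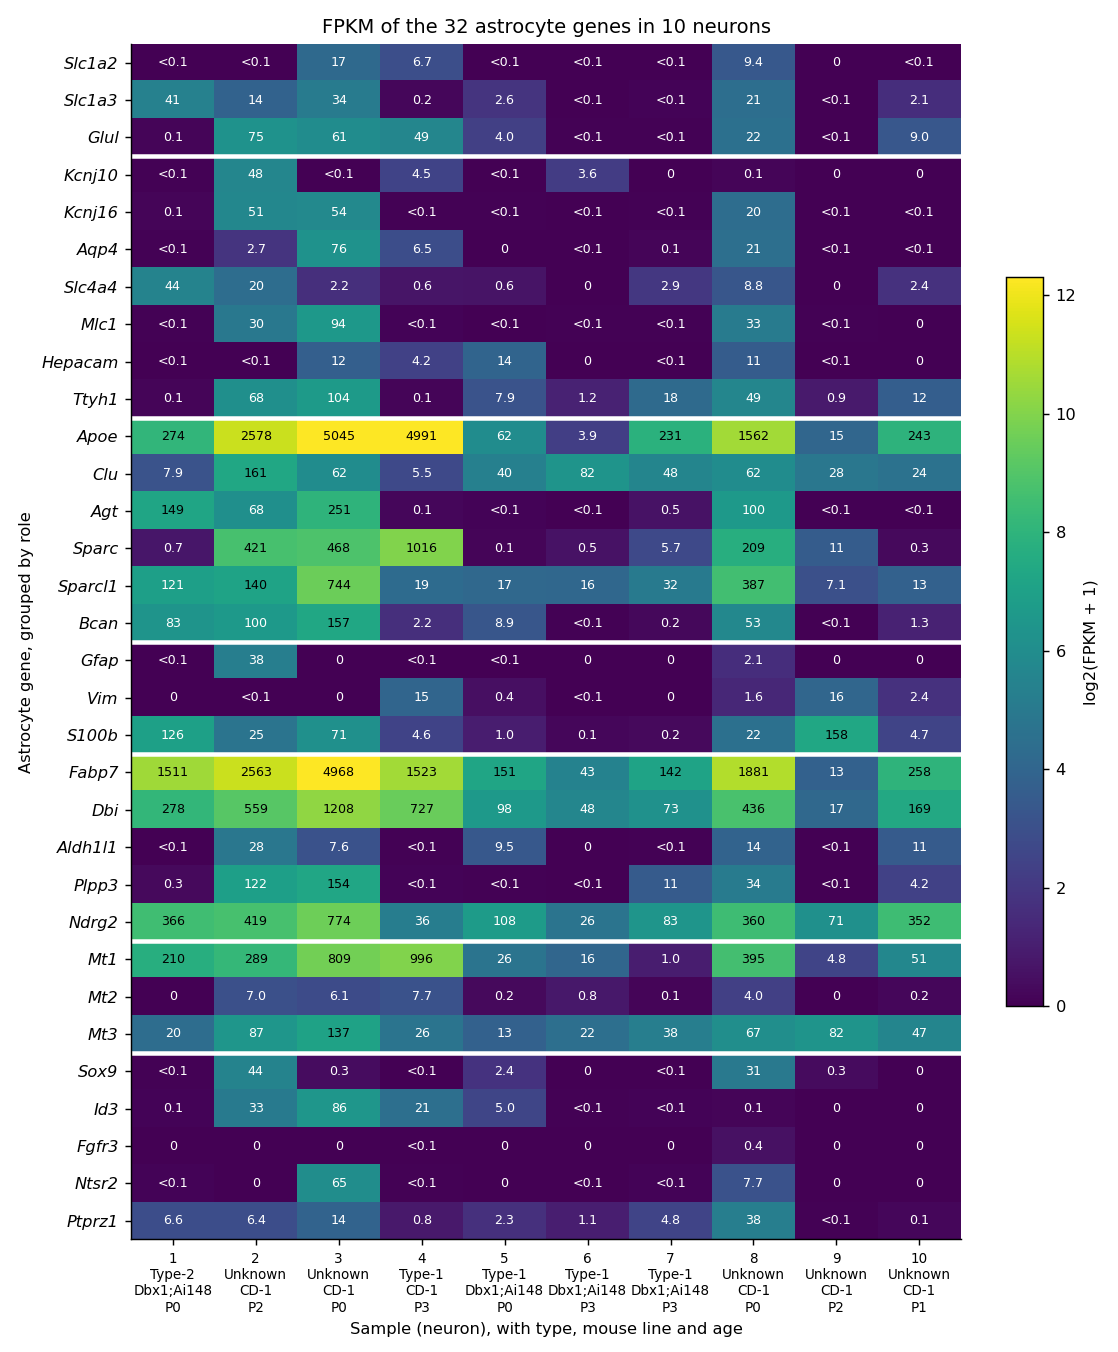
FPKM of the 32 astrocyte genes (rows, grouped by role between white lines) in the 10 neurons (columns); colour is log2(FPKM + 1) and the printed figure is the FPKM. Columns 2, 3 and 8 are filled nearly throughout, with 27, 27 and 29 genes at 1 FPKM or more, while Apoe, Clu, Sparcl1, Fabp7, Dbi, Ndrg2, Mt1 and Mt3 are filled in all 10 columns.

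Secreted proteins of astrocytes gave the highest values. Apoe (chr7:19696109-19699188, minus strand), the protein of the lipoproteins that bring cholesterol to neurons, was at 2578, 5045, 1562, 15.5 and 243 FPKM in Unknown samples 2, 3, 8, 9 and 10, at 4991, 62.0, 3.88 and 231 FPKM in Type-1 samples 4 to 7, and at 274 FPKM in sample 1. It was present in all 10 neurons, highest in samples 3, 4, 2 and 8, and the types overlapped over nearly the whole range. Sparc, a secreted matrix protein that limits synapse formation, was at 421, 468, 209, 10.9 and 0.251 FPKM in Unknown samples 2, 3, 8, 9 and 10, at 1016, 0.108, 0.511 and 5.65 FPKM in Type-1 samples 4 to 7, and at 0.691 FPKM in sample 1. Sample 4, with 19 astrocyte genes present, held the highest Sparc and an Apoe level close to that of sample 3. In this library the microglia list was also highest, with Tyrobp at 5567 FPKM and C1qb at 3885 FPKM, and the part of that list in the Apoe and Sparc levels was not tested.

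Agt (chr8:124556534-124569706, minus strand), which encodes angiotensinogen and is made in the brain largely by astrocytes, was at 68.1, 251, 99.9, 0.0240 and 0.0173 FPKM in Unknown samples 2, 3, 8, 9 and 10, at 0.144, 0.0722, 0.0336 and 0.535 FPKM in Type-1 samples 4 to 7, and at 149 FPKM in sample 1. It split the neurons into 4 with 68.1 FPKM or more and 6 with 0.535 FPKM or less, and sample 4 fell in the low group with 8 fragments. Sparcl1, the related matrix protein known to promote synapses, was at 140, 744, 387, 7.06 and 13.3 FPKM in Unknown samples 2, 3, 8, 9 and 10, at 18.9, 17.0, 16.2 and 32.2 FPKM in Type-1 samples 4 to 7, and at 121 FPKM in sample 1. The same 4 neurons were the highest for Sparcl1, but here the other 6 kept levels between 7.06 and 32.2 FPKM.

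Bcan, the proteoglycan brevican of the perineuronal matrix, was at 99.98, 157, 53.0, 0.0334 and 1.28 FPKM in Unknown samples 2, 3, 8, 9 and 10, at 2.17, 8.89, 0.0391 and 0.220 FPKM in Type-1 samples 4 to 7, and at 82.8 FPKM in sample 1. Samples 1, 2, 3 and 8 were again the 4 highest. Clu, the chaperone clusterin, was at 161, 62.4, 61.6, 28.2 and 24.1 FPKM in Unknown samples 2, 3, 8, 9 and 10, at 5.47, 40.1, 82.3 and 48.2 FPKM in Type-1 samples 4 to 7, and at 7.90 FPKM in sample 1. Clu departed from the other secreted genes, since sample 6, the neuron with the lowest astrocyte level over all 32 genes, had the second highest value, and samples 1 and 4 had the lowest.

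The third group held the filament proteins Gfap and Vim and the calcium-binding protein S100b. Gfap (chr11:102887336-102900912, minus strand), the classic filament of reactive and fibrous astrocytes, was at 37.9, 0, 2.07, 0 and 0 FPKM in Unknown samples 2, 3, 8, 9 and 10, at 0.0161, 0.0194, 0 and 0 FPKM in Type-1 samples 4 to 7, and at 0.0111 FPKM in sample 1. Sample 2 held 94.7% of the summed level over all neurons, with 5803 fragments, whereas sample 3, with 27 astrocyte genes at 1 FPKM or more, had 0. Vim, the filament vimentin of radial glia, immature astrocytes and vascular cells, was at 0.0233, 0, 1.56, 15.9 and 2.38 FPKM in Unknown samples 2, 3, 8, 9 and 10, at 15.3, 0.432, 0.00670 and 0 FPKM in Type-1 samples 4 to 7, and at 0 FPKM in sample 1. Vim was thus highest in samples 9 and 4 and absent or nearly so in samples 2 and 3.

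S100b was at 25.2, 71.1, 22.0, 158 and 4.66 FPKM in Unknown samples 2, 3, 8, 9 and 10, at 4.65, 0.975, 0.150 and 0.236 FPKM in Type-1 samples 4 to 7, and at 126 FPKM in sample 1. Its highest value came from sample 9, which had only 11 astrocyte genes at 1 FPKM or more. The Type-1 and Unknown ranges of S100b did not overlap, but they touched, with 4.65 FPKM in sample 4 against 4.66 FPKM in sample 10. Sample 8 was the single library that carried Gfap, Vim and S100b together at 1 FPKM or more.

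Among genes of lipid handling and metabolism, Fabp7 (chr10:57784881-57788450, plus strand), the brain fatty acid-binding protein of radial glia and young astrocytes, was at 2563, 4968, 1881, 13.2 and 258 FPKM in Unknown samples 2, 3, 8, 9 and 10, at 1523, 151, 42.7 and 142 FPKM in Type-1 samples 4 to 7, and at 1511 FPKM in sample 1. Dbi, the acyl-CoA-binding protein that also acts on GABA receptors, was at 559, 1208, 436, 16.7 and 169 FPKM in Unknown samples 2, 3, 8, 9 and 10, at 727, 97.9, 48.3 and 72.9 FPKM in Type-1 samples 4 to 7, and at 278 FPKM in sample 1. Ndrg2, an astrocyte stress-response protein, was at 419, 774, 360, 71.1 and 352 FPKM in Unknown samples 2, 3, 8, 9 and 10, at 36.3, 108, 25.7 and 83.3 FPKM in Type-1 samples 4 to 7, and at 366 FPKM in sample 1. All 3 genes were at 10 FPKM or more in every neuron, with sample 3 the highest. Fabp7 and Dbi were lowest in sample 9 and Ndrg2 in sample 6. For Ndrg2 the Unknown and Type-1 neurons overlapped through sample 9 alone.

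Aldh1l1, the folate enzyme widely used to label astrocytes, was at 28.0, 7.60, 14.3, 0.0201 and 10.5 FPKM in Unknown samples 2, 3, 8, 9 and 10, at 0.0602, 9.47, 0 and 0.0431 FPKM in Type-1 samples 4 to 7, and at 0.0310 FPKM in sample 1. It passed 1 FPKM in 5 neurons, among them samples 5 and 10, which carried 17 astrocyte genes each. Plpp3, a phosphatase that breaks down lysophosphatidic acid, was at 122, 154, 33.9, 0.0287 and 4.21 FPKM in Unknown samples 2, 3, 8, 9 and 10, at 0.0968, 0.0605, 0.0101 and 10.7 FPKM in Type-1 samples 4 to 7, and at 0.252 FPKM in sample 1. It was high in samples 2, 3 and 8 and, at a lower level, in sample 7.

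The metallothioneins bind zinc and copper. Mt1 and Mt2 are induced by metals and stress, whereas Mt3 is the neural form. The 3 genes lie side by side on chromosome 8 of GRCm38, all on the plus strand, Mt3 at chr8:94152607-94154146, Mt2 at chr8:94172664-94173568 and Mt1 at chr8:94179082-94180327. Their upstream sequences are shown because neighbouring genes of 1 cluster had different patterns in the same neurons. The letters are RefSeq, assembly GRCm38.p6, plus strand, 240 bases that end 11 bases before the RefSeq start, at chr8:94178839-94179078 for Mt1, chr8:94172368-94172607 for Mt2 and chr8:94152357-94152596 for Mt3. Capitals mark the core of the metal response element, searched as TGCACNC or TGCGCNC on both strands.
Mt1: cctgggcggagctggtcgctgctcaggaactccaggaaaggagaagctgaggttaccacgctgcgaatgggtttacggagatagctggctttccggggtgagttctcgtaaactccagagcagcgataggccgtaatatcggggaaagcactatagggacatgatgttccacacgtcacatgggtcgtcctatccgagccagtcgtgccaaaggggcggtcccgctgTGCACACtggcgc
Mt2: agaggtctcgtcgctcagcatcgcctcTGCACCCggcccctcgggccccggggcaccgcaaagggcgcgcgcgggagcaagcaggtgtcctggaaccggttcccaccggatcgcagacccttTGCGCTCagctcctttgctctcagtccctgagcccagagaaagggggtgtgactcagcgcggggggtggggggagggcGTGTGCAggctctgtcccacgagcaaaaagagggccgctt
Mt3: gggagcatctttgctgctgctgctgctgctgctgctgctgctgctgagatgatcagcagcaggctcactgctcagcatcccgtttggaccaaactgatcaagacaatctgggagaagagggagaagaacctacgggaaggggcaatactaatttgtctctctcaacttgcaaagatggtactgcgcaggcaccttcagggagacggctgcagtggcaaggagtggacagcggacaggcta
Within these windows Mt1 held 1 match and Mt2 held 3, of which 2 were on the printed strand and 1 on the other, while Mt3 held 0. Bases outside the windows, downstream of their ends included, were not searched. The counts are therefore not the number of elements of each promoter and do not rank the 3 genes. Of 32851 RefSeq promoter windows of this length 20.4% held at least 1 match and 1.18% held 3 or more. Of the 32 astrocyte genes, 28 were matched to 38 such windows, and 8 of these (21.1%) held the motif, a share close to that of all windows. A match is a description of letters, and its absence says nothing of the factor that binds it.

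Mt1 was at 289, 809, 395, 4.84 and 50.9 FPKM in Unknown samples 2, 3, 8, 9 and 10, at 996, 25.7, 15.7 and 1.00 FPKM in Type-1 samples 4 to 7, and at 210 FPKM in sample 1. Mt3 was at 86.6, 137, 66.8, 82.2 and 47.0 FPKM in Unknown samples 2, 3, 8, 9 and 10, at 25.8, 12.9, 21.8 and 37.5 FPKM in Type-1 samples 4 to 7, and at 20.2 FPKM in sample 1. Mt1 thus ran from 1.00 to 996 FPKM, and Mt3 only from 12.9 to 137 FPKM. In sample 4 Mt1 was at its highest while Mt3 was among the lower values, and in samples 6, 7 and 9 Mt3 was above Mt1. All Unknown neurons were above all Type-1 neurons for Mt3, with 47.0 FPKM in sample 10 against 37.5 FPKM in sample 7.

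Mt2 was far below Mt1 in every library, at 7.68, 6.99, 6.11 and 4.03 FPKM in samples 4, 2, 3 and 8, with 0.756 FPKM as the highest of the others. Its counts were 0.357% to 1.14% of those of Mt1 in these 4 libraries. The annotation gives a limit to this value, since 432 of the 588 exon bases of Mt2 (73.5%) also belong to Gm45774, an antisense gene with 0 to 4 counts, and SMART-Seq v4 does not keep strand. Fragments from bases shared by 2 genes cannot be assigned to either, so the level of Mt2 is uncertain. A smaller share of exon bases is shared with another gene in 5 further members, Fgfr3 (13.9%), Aldh1l1 (13.4%), Ttyh1 (6.65%), Glul (3.49%) and Slc1a2 (1.44%).

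The last group held receptors and transcription factors. Id3, an inhibitor of helix-loop-helix factors that acts downstream of BMP signals, was at 32.6, 86.3, 0.126, 0 and 0 FPKM in Unknown samples 2, 3, 8, 9 and 10, at 21.4, 5.00, 0.0532 and 0.0870 FPKM in Type-1 samples 4 to 7, and at 0.104 FPKM in sample 1. Sample 8, with 29 astrocyte genes at 1 FPKM or more, had only 6 fragments of it. Ntsr2, a neurotensin receptor of astrocytes, was at 0, 64.9, 7.71, 0 and 0 FPKM in Unknown samples 2, 3, 8, 9 and 10, at 0.0435, 0, 0.0102 and 0.0874 FPKM in Type-1 samples 4 to 7, and at 0.0749 FPKM in sample 1. Sample 2 had no fragment of Ntsr2, which allows up to 0.0265 FPKM, although it had 27 other astrocyte genes at 1 FPKM or more.

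Sox9, the transcription factor that starts gliogenesis, reached 44.2, 30.6 and 2.45 FPKM in samples 2, 8 and 5 and no more than 0.318 FPKM elsewhere, sample 3 included. Ptprz1, a receptor phosphatase of astrocytes and oligodendrocyte precursors, was highest in sample 8, at 37.6 FPKM, followed by 14.3 FPKM in sample 3. It passed 1 FPKM in 7 neurons, among them samples 1, 2 and 7 with 6.55, 6.38 and 4.84 FPKM. Fgfr3, a growth factor receptor of astrocyte precursors, passed in none, since it had 85 fragments (0.447 FPKM) in sample 8, 2 fragments in sample 4 and 0 in the other 8 neurons. The filter of 1 FPKM in at least 1 neuron was therefore passed by 31 of the 32 members, as by 16546 of all 55367 genes.

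A total of 8 members were at 1 FPKM or more in all 10 neurons (Apoe, Clu, Sparcl1, Fabp7, Dbi, Ndrg2, Mt1 and Mt3), which is 25% of the 32, against 2.33% of all listed genes. In Apoe (sample 6), Mt1 (sample 7) and Fabp7 (sample 9) the lowest of these values was at or under 0.2% of the gene's count in its highest library. With such counts set to 0, 5 genes (15.6%, against 2.3% of all listed genes) remained in all 10 neurons. Most listed genes passed in no neuron, which widens both distances. Among genes that passed in at least 1 neuron, the counts were 8 of 31 members against 1290 of 16546 genes. With the small counts set to 0 they were 5 against 1271. The other 24 were patchy. Of these, 4 passed in 7 neurons, 4 in 6, 2 in 5, 6 in 4, 5 in 3 and 2 in 2, and Fgfr3 passed in none. Within this patchy set each of samples 2, 3 and 8 lacked different genes. Sample 2 lacked Slc1a2, Hepacam, Vim, Ntsr2 and Fgfr3, sample 3 lacked Kcnj10, Gfap, Vim, Sox9 and Fgfr3, and sample 8 lacked Kcnj10, Id3 and Fgfr3 at this level.

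The highest value of a member was most often in sample 3, which led for 16 of the 31 genes that passed the filter (51.6%), against 8.46% of all genes that passed it. Sample 2 led for 6 (19.4%, against 9.65%), namely Glul, Kcnj10, Clu, Gfap, Aldh1l1 and Sox9. Sample 4 led for Sparc, Mt1 and Mt2 (9.68%, against 12.6%), sample 1 for Slc1a3 and Slc4a4 (6.45%, against 12.9%), sample 9 for Vim and S100b (6.45%, against 7.67%), sample 5 for Hepacam (3.23%, against 8.05%) and sample 8 for Ptprz1 (3.23%, against 9.8%). Samples 6, 7 and 10 led for none, against 10.0%, 10.5% and 10.3% of all genes. A share above that of all genes was thus seen in samples 2 and 3.

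Low values were of a kind of their own. Of the 320 values (32 genes in 10 neurons), 185 were at 1 FPKM or more, 37 were 0, and 98 lay between. Of those 98, 72 rested on 10 fragments or fewer, and 81 were at or under 0.2% of the count that the same gene had in its highest library. Of the 185 values at 1 FPKM or more, 3 were that small a part of the highest. In sample 1, all 15 low values were at or under 0.2% of the highest library, and in sample 6 it was 14 of 15. Whether such fragments came from the neuron or from another library was not tested. With these counts set to 0, the number of astrocyte genes at 1 FPKM or more fell by at most 1 in any neuron.

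**Figure D4:**
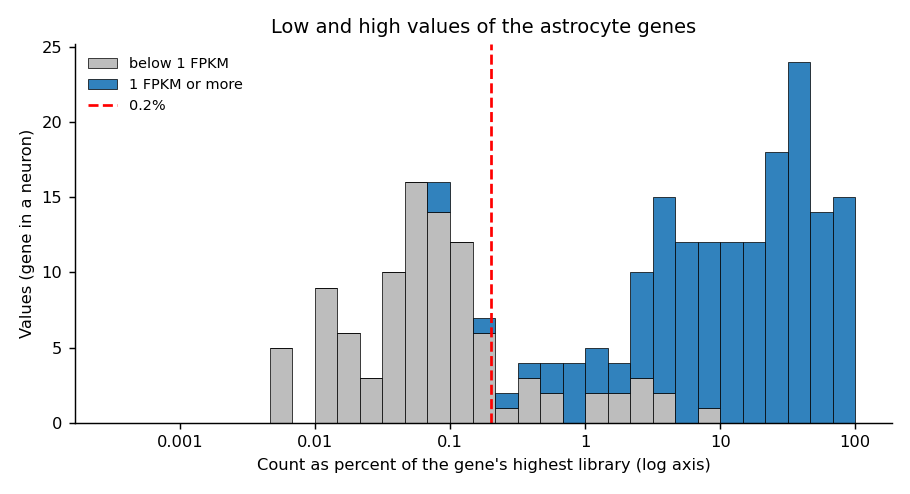
Number of gene-by-neuron values (vertical axis) by the count as percent of the same gene's count in its highest library (horizontal axis, log scale), leaving out zeros and the highest library itself; grey is below 1 FPKM, blue 1 FPKM or more, and the dashed red line is 0.2%. The values form a low group left of the line, with 81 of the 97 plotted values below 1 FPKM, and a high group to its right.

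A total of 17 genes were at 10 FPKM or more in a neuron with fewer than 16 of the 32 genes at 1 FPKM or more (samples 1, 6, 7 and 9). They are called alone here, although other members were present in each of these neurons. This is 53.1% of the 32, whereas of all listed genes 15.4% were that high in any of these 4 neurons. Most listed genes, however, passed 1 FPKM in no neuron. Among genes that passed it in at least 1 neuron, the counts were 17 of 31 members and 8537 of 16546 genes, which are close as shares. Sample 1 held 12 of them, Slc1a3, Slc4a4, Apoe, Agt, Sparcl1, Bcan, S100b, Fabp7, Dbi, Ndrg2, Mt1 and Mt3. In the same library Aqp4, Gfap, Aldh1l1, Slc1a2, Glul, Kcnj10, Kcnj16, Mlc1, Sox9, Plpp3 and Ttyh1 were each at 0.252 FPKM or less. The Type-2 neuron therefore carried a subset at high level, with Slc1a3 and Slc4a4 at the highest values of all neurons and Agt, Bcan, S100b and Ndrg2 within the 3 highest, while the channels for potassium and water were below 1 FPKM.

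In sample 6 the genes alone were 7, Clu, Sparcl1, Fabp7, Dbi, Ndrg2, Mt1 and Mt3, all of them among the 8 genes found in every neuron. Clu was the highest of these at 82.3 FPKM. Sample 7 held 9, the genes of sample 6 without Mt1 and with Apoe at 231 FPKM, Ttyh1 at 17.8 FPKM and Plpp3 at 10.7 FPKM. In sample 9 there were also 9, among them S100b at 158 FPKM, Vim at 15.9 FPKM and Sparc at 10.9 FPKM, while Apoe was at 15.5 FPKM and Fabp7 at 13.2 FPKM, each among its 2 lowest values. S100b was thus high in sample 9 with Fabp7 and Dbi at their lowest, and high in sample 1 with Fabp7 at 1511 FPKM.

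The genes were also compared by the order of their levels over the neurons. Of the 465 pairs of the 31 genes, 47 (10.1%) had a Spearman rho of 0.8 or more, against 0.748% of all pairs of genes that passed the filter. The median rho of the pairs was 0.48. The points share their libraries and n is 10, so these values describe the libraries only. The closest pairs were Dbi with Apoe (rho = 0.98), Dbi with Fabp7 (0.96), Sparcl1 with Agt (0.95) and Sparcl1 with Kcnj16 (0.94). Mlc1 with Aqp4 was at 0.92. In neurons below 1 FPKM, Kcnj16 had at most 11 fragments, Mlc1 6, Aqp4 21 and Agt 26. Part of the order in these pairs therefore rests on few fragments. The Pearson correlation of log2(FPKM + 1) was 0.85 for Sparcl1 with Kcnj16 and for Mlc1 with Aqp4. For Sparcl1 with Agt it was 0.95. Fabp7 and Bcan had the most partners, 9 each. Sox9, Aldh1l1, Gfap, Kcnj10, Slc4a4, Mt3, Hepacam, Clu, S100b and Vim had no partner at 0.8, and the median rho of Vim with the other 30 genes was -0.25. Without sample 4 the number of pairs was 79, and without sample 10 it was 78.

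Neurons were also alike in the order of the 31 genes. Samples 3 and 8 were closest, at a rho of 0.85, and samples 2 and 8 were at 0.80, but so were samples 1 and 7 and samples 1 and 8, and samples 7 and 8 were at 0.81. The lowest value was 0.43, between samples 1 and 4. Over all 16546 genes the rho of neuron pairs ran from 0.38 to 0.70. Neurons with high and with low astrocyte levels therefore shared part of the order of the genes, with Fabp7, Dbi and Ndrg2 at 10 FPKM or more in each of them.

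By mouse line, the number of astrocyte genes at 1 FPKM or more was 13.8 ± 2.5 (SD, n = 4) in Dbx1-derived and 21.7 ± 7.12 (SD, n = 6) in CD-1 neurons, and the mean log2(FPKM + 1) was 2.12 ± 0.658 and 3.86 ± 1.7. Without sample 4 the CD-1 values were 22.2 ± 7.82 genes and 3.98 ± 1.88 (SD, n = 5). The ranges overlapped, with 11 to 17 genes against 11 to 29. None of the 31 genes separated the 4 Dbx1-derived from the 6 CD-1 neurons without overlap, against 1.83% of all genes. In 30 of the 31 genes (96.8%) the median was lower in Dbx1-derived neurons, against 32.8% of all genes. Ntsr2, with the higher median, was the exception (50.9% of all genes). Its Dbx1-derived values rested on at most 7 fragments, and its highest levels, 64.9 and 7.71 FPKM, were in CD-1 samples 3 and 8. Among the 30, the Gfap medians also rested on few fragments, with 3 or fewer in every neuron but samples 2 and 8. The count of 30 was chosen after the values were seen. Leaving out 1 neuron moved it between 22 and 31, with 27 without sample 4. Among the 5 libraries of higher median FPKM alone (samples 5, 6, 7, 8 and 10) it was 29 (93.5%, against 55.8% of all genes).

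Within P0, the Dbx1-derived samples 1 and 5 were both below the CD-1 samples 3 and 8 in 18 genes (58.1%, against 12.5% of all genes) and above them in 0 (against 11.2%). The 18 include Apoe, Fabp7, Dbi, Sparcl1, Sparc, Aqp4, Mlc1, Kcnj16, Glul and all 3 metallothioneins. Slc1a3, Agt, Bcan and S100b were not among them, since sample 1 was high in these genes. Within P3, the Dbx1-derived samples 6 and 7 were below the CD-1 sample 4 in 20 genes (64.5%, against 25.4% of all genes) and above it in 3, Ptprz1, Ttyh1 and Clu (against 36.6%). The 20 include Gfap, Kcnj16, Mlc1 and Aldh1l1, which had 8 fragments or fewer in each of these libraries. The P3 comparison rests on sample 4 alone, the library with the high microglia genes, and without it no CD-1 neuron of that age remains.

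By type, Type-1 neurons had 15.0 ± 3.65 (SD, n = 4) and Unknown neurons 22.2 ± 7.82 (SD, n = 5) astrocyte genes at 1 FPKM or more, and Type-1 neurons 13.7 ± 3.06 (SD, n = 3) without sample 4. The 2 genes S100b and Mt3 were lower in all Type-1 than in all Unknown neurons (6.45% of the 31 genes, against 0.393% of all genes), and none was higher (against 0.58%). Both genes were also separated without sample 4. With library sizes from edgeR's TMM method neither gene was, and with DESeq2 size factors only Ndrg2 was. The median was lower in Type-1 neurons in 25 genes (80.6%, against 30.2% of all genes), and in 28 without sample 4. It was higher in Kcnj10, Slc1a2, Id3, Hepacam, Gfap and Ntsr2 (19.4%, against 51.3% of all genes). In Slc1a2, Gfap and Ntsr2 the Type-1 medians rested on few fragments, and the highest values of these genes were in Unknown neurons.

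By age, 1 FPKM was reached by 21.8 ± 7.37 (SD, n = 4) of the genes at P0 and 16.3 ± 6.15 (SD, n = 6) at P1 to P3, or 15.8 ± 6.72 (SD, n = 5) without sample 4. No gene separated the ages without overlap, against 0.435% of all genes. In 29 genes (93.5%) the median was higher at P0, against 41.7% of all genes, and Kcnj10 and Vim were the exceptions, with a lower median (6.45%, against 39.9%). Among the 29, Gfap had 3 fragments or fewer in every neuron but samples 2 and 8. Its highest level, 37.9 FPKM, was in P2 sample 2. The count of 29 fell to 23 without sample 3 or without sample 8, and without sample 4 it was 30. Among the 5 libraries of higher median FPKM it was 31 (against 55.8% of all genes), where sample 8 is 1 of the 2 P0 neurons. Among Dbx1-derived neurons, the P0 samples 1 and 5 were both above the P3 samples 6 and 7 in 12 genes (38.7%, against 8.16% of all genes), among them Fabp7, Dbi, Bcan, S100b, Mt1 and Slc1a3, and below them in Mt3 and Clu (6.45%, against 15.4%). The 12 also include Gfap and Kcnj16, which had 11 fragments or fewer in each of these Dbx1-derived neurons. Among CD-1 neurons, the P0 samples 3 and 8 were above the 4 later ones in 9 genes (29.0%, against 4.7%), Slc1a2, Slc1a3, Aqp4, Mlc1, Hepacam, Agt, Sparcl1, Ntsr2 and Ptprz1, and below them in 0 (against 2.68%). The 2 lines had Slc1a3 in common.

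A further list of 38 astrocyte genes had its highest counts in samples 2, 3, 4 and 8, as the 32 members did. This list too was chosen with earlier results of these data known, so it is no independent check. Of these genes, 30 reached 1 FPKM in a neuron, Gli3 was counted below that level, and Fam107a, Itih3, Daam2, Etnppl, Chrdl1, Gpc4 and Thbs4 had 0 counts in all 10 neurons. Sample 8 carried 25 of the 38, samples 2 and 3 carried 19 each and sample 4 carried 18, against 5 to 13 in the other 6 neurons. Of all listed genes 16.8%, 10.2%, 9.13% and 12.3% passed in samples 8, 2, 3 and 4, and 9.15% to 16.7% in the other 6. Sample 1, with 12 of the 32 members at 10 FPKM or more, carried only 5 of these 38 at 1 FPKM or more, the fewest of all. Cst3, the secreted protease inhibitor cystatin C that microglia also make, was at 15870 FPKM in sample 4 and between 159 and 2925 FPKM in the others. Aldoc, the brain aldolase, was highest in sample 3 at 1193 FPKM, and Pla2g7, a secreted phospholipase, also in sample 3 at 679 FPKM.

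Other cell type lists moved in part with the astrocyte genes. The 12 microglia genes summed to 2650, 661 and 735 FPKM in samples 2, 3 and 8 with 11, 7 and 10 genes at 1 FPKM or more, but 11 genes also passed in sample 10 (352 FPKM) and 10 in sample 5 (165 FPKM). The 11 oligodendrocyte-lineage genes summed to 338, 230 and 120 FPKM in samples 3, 2 and 8, to 0.110 to 74.0 FPKM in the other 7, and were led by Mbp at 151 FPKM in sample 3. The neuron list summed to 3070, 2550 and 2270 FPKM in samples 2, 3 and 8, below the 3980 to 5740 FPKM of samples 5, 6, 7, 9 and 10 and above the 1580 FPKM of sample 1. Mitochondrially encoded genes took 7.37%, 7.83% and 5.05% of the counts in samples 2, 3 and 8, 9.85% in sample 4, 7.78% in sample 9, and 0.219% to 1.25% in the other 5. The part of these differences in the astrocyte gene levels was not tested.

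**Figure D5:**
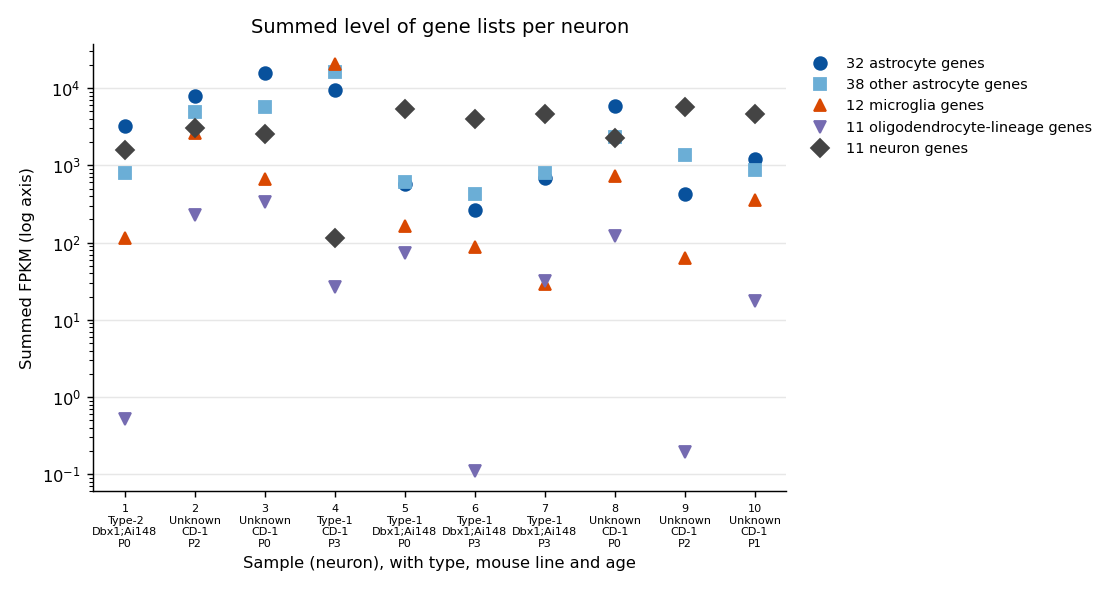
Summed FPKM (vertical axis, log scale) of the 32 astrocyte genes, 38 other astrocyte genes, 12 microglia genes, 11 oligodendrocyte-lineage genes and 11 neuron genes in each of the 10 neurons (horizontal axis, with type, mouse line and age). The astrocyte sum exceeds the neuron sum in samples 1, 2, 3, 4 and 8, and the microglia sum exceeds both in sample 4, at 20300 FPKM. The lists differ in length, so their sums do not compare amounts of RNA between cell types. In sample 1 Fabp7 alone gave 1511 of the 3240 FPKM of the astrocyte sum, beside a neuron sum of 1580 FPKM.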

How the data were processed

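RNA from 10 single neurons was sequenced, 1 library per neuron. The authors aligned trimmed reads with STAR 2.7.7a to GRCm38 (mm10), ran featureCounts, and deposited the resulting raw counts of fragments for each gene. The deposited FPKM values were computed by the authors from these counts, the gene lengths in bases and the library totals, with no further normalization, and recomputing them gave a largest relative deviation of 3.33e-13. Options for fragments that match several genes or either strand are not given in the sources used here. No column was left unmapped (0).

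The 32 members and all gene lists were chosen with earlier results of these data known. All members are named. Values in every neuron are given for the 2 members with the highest FPKM per role, for Gfap, Aqp4, Aldh1l1 and Agt, and for each member at 10 FPKM or more in a neuron with fewer than 16 members at 1 FPKM or more. Other members are given by range and counts. Of the other astrocyte genes the 3 highest and those with no count are named, and of each further list up to 2 genes.

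Presence was set at 1 FPKM, and 16546 of 55367 genes reached it in a neuron. Groups came from the sample labels. Each group was described by its values, by mean ± SD over neurons of log2(FPKM + 1), and by genes whose groups did not overlap, read against all genes that passed. Correlations are Spearman's rho over neurons. Because each sample is 1 neuron and no animal is named, no test was made. Library totals ran from 21392146 to 36629393, and Wilson 95% intervals and the limit of 3 counts for a count of 0 cover counting error only. Positions are from GENCODE M21, where the exon length equals the deposited length for 30 of 32 members, with Glul and Slc4a4 as the exceptions. Promoters are from RefSeq. The scripts were tested on simulated data.

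Alternatives were TPM, edgeR TMM library sizes, DESeq2 size factors, other limits and pseudocounts, small counts set to 0, thinning, and leaving out each neuron. The within-age and within-line values, the counts of medians, the count of neurons at 10 FPKM, the count of genes present in all neurons, and the values without sample 4 or within the 5 libraries of median FPKM of 1 or more were chosen after seeing the data. Software was R 4.3.3 with edgeR 4.0.16 and DESeq2 1.42.0 (for library sizes only), and pandas 2.3.3, NumPy 2.4.6, SciPy 1.17.1 and Matplotlib 3.10.9 under Python 3.11.15.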

Additional observations from a re-analysis of the deposited data

Results flagged for a closer look

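Within each type of 4 or 5 neurons, the gap between an extreme neuron and its nearest neighbour was compared with the range of the type by Dixon's criterion, for genes on the log2(FPKM + 1) scale (0.829 for 4 neurons, 0.71 for 5). Of 72 groups of values examined, 11 passed. For independent values chance passes about 1 in 20, but these groups share their libraries and many values rest on few fragments, so that rate does not apply and the values are a description. Each was 1 neuron above the others of its type.

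Among Type-1 neurons, sample 4 stood apart in Slc1a2 at 6.74 FPKM (next 0.0178), in Aqp4 at 6.55 FPKM (next 0.131), in Vim at 15.3 FPKM (next 0.432) and in the share of counts on the 32 genes at 1.94% (next 0.164%). Sample 4 was also the library with the microglia list at 20300 FPKM, and the part of that in these values was not tested. Fgfr3 stood apart in the same neuron at 0.00949 FPKM, which is 2 fragments against 0 in the others. Sample 5 exceeded the rest of its type in this way in Aldh1l1 at 9.47 FPKM (next 0.0602), in Slc1a3 at 2.60 FPKM (next 0.151) and in Sox9 at 2.45 FPKM (next 0.00942), and sample 7 in Plpp3 at 10.7 FPKM (next 0.0968).

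Among Unknown neurons, sample 2 stood apart in Kcnj10 at 48.5 FPKM, where the next neuron, sample 8, held 0.125 FPKM. Fgfr3 stood apart in sample 8 at 0.447 FPKM, with 0 counts in the other 4.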

How the results depend on the processing

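Of 212 alternative values for group and list counts, 187 stayed within 1.5 times, or 1 SD, of the reported value and 25 moved. Many of them could not have moved by this rule. Leaving out 1 neuron cannot shift a mean by 1 SD, and it can bring a count of 6 neurons only to 5. The 187 are therefore no measure of stability. All 60 alternative counts of genes present in a single neuron stayed within 1.5 times. With a limit of 10 FPKM in place of 1 FPKM, 3 neurons (samples 2, 3 and 8) rather than 6 carried 16 or more members. With a pseudocount of 0.1 the Type-1 mean was 0.70. The number of genes appearing alone was 11 with presence set at 0.1 FPKM, and 9 with presence at 10 FPKM and 100 FPKM for the gene. Genes separating Dbx1-derived from CD-1 neurons were 1 with TMM library sizes (Mt3), 18 within P0 and 23 within P3. Those separating Type-1 from Unknown neurons were 0 with TMM and 1 with DESeq2 size factors. Those separating the ages were 14 within Dbx1;Ai148 and 9 within CD-1. With only the 5 libraries of median FPKM of 1 or more, 10 genes separated the lines, 10 the types (the groups are then the same neurons) and 7 the ages. With counts at or under 0.2% of the highest library set to 0, 5 genes rather than 8 were at 1 FPKM in all neurons.

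Leaving out 1 neuron at a time, the genes separating the lines ranged from 0 to 1 (S100b without sample 1, Mt3 without sample 4 or 7, Glul without sample 9, Sparc without sample 10). Those separating the ages ranged from 0 to 3 (Slc1a3, Agt and Ptprz1 without sample 5, Slc1a3 and Bcan without sample 2, Hepacam without sample 1), and those separating the types from 2 to 3. Pairs of genes at a rho of 0.8 ranged from 42 to 79, with 79 without sample 4 and 78 without sample 10. Genes alone ranged from 13 to 17, neurons with 16 or more members from 5 to 6, the Unknown mean from 3.55 to 4.58 and the Type-1 mean from 1.85 to 2.47. Counts of lower or higher medians ranged from 22 to 31 by line, 25 to 30 by type and 23 to 30 by age.

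TMM moved all genes of a library by -0.52 (sample 10) to 0.58 (sample 4) on the log2 scale, and DESeq2 size factors by -0.54 (sample 10) to 1.6 (sample 1). No paired analysis was possible because replicate numbers were given in accession order only and the results come from no test. Each group holds 1 to 6 neurons from an unknown number of animals, which limits every comparison. Read depth limits the low values, where a few fragments decide between 0 and a level under 1 FPKM. A low or 0 count does not separate a gene that was absent from one lost before sequencing, which was not tested.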
